A study of Mus musculus with 4 samples.

Results

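The genes described here encode the MHC class I complex and the machinery that loads it with peptide: H2-K1, H2-D1, B2m, Tap1, Tap2, Tapbp, Nlrc5, Erap1, Calr and Pdia3. They were chosen by name, and every non-control array probe whose transcript identifier belongs to one of them was used. This gave 16 probes for all 10 genes, out of 33767 probes assigned to 23462 gene symbols. H2-K1, Tap1, Tap2, Tapbp, Nlrc5 and Pdia3 had 2 probes each, and H2-D1, B2m, Erap1 and Calr had 1. All 16 probes were well above background, by the scanner software's own flag, on all 4 arrays.

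The cells were dendritic cells grown from femoral bone marrow of male wild-type C57BL/6J mice, in medium with 10% FBS and 10 ng/ml GM-CSF, and collected on day 6. The 4 groups were LPS (100 ng/ml) with LA (20 mM), LPS alone (100 ng/ml), LA alone (20 mM) and unstimulated cells, called medium here. Treatments lasted 4 h, and no time was given for medium. LA is written as L-(+)-LA in the labels and appears as lactate in the series title. No pH was stated for it. Each group was 1 single-colour array of total RNA, so the differences below carry no p-value, their variation between cultures is unknown, and precision is limited by having 4 arrays. How many mice contributed to an array is not given in the sources used here.

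MHC class I molecules display peptides from inside the cell to CD8 T cells. A heavy chain, such as the products of H2-K1 and H2-D1, pairs with beta-2-microglobulin and binds a short peptide in the endoplasmic reticulum. Peptides made by the proteasome are pumped in by the transporter TAP, trimmed by aminopeptidases and loaded within a complex of tapasin, calreticulin and the disulfide isomerase encoded by Pdia3. Interferons and NF-kB raise transcription of many of these genes in most cell types, NLRC5 acts as the class I transactivator, and dendritic cells use the pathway to prime CD8 T cells.

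Promoter windows of 4 genes (for H2-K1, 1 of 2 listed) are shown first because they carry the short motifs through which interferon and NF-kB signals are known to act on class I genes. The windows cover 250 bases before to 50 bases after an annotated transcript start, come from RefSeq (GRCm38.p6), and were listed for 8 of the 10 genes (H2-K1, H2-D1, B2m, Tap1, Tapbp, Erap1, Calr and Pdia3). Capitals mark matches, on either strand, to the interferon-stimulated response element cores GAAANNGAA and GAANNGAAA and to the NF-kB core GGNNNTTCC.
H2-K1, chr17:34000298-34000597, minus strand: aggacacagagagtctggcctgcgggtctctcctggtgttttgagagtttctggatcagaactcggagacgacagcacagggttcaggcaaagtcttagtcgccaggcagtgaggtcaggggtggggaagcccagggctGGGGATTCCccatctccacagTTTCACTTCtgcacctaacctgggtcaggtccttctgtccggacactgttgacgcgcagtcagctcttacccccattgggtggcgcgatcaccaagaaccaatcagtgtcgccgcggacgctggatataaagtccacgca
H2-D1, chr17:35262844-35263143, plus strand: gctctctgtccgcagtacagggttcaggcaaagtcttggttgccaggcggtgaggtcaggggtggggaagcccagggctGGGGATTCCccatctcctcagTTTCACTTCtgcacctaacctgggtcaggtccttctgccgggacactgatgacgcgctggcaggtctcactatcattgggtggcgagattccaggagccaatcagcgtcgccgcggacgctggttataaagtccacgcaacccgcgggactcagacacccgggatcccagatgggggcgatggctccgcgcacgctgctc
B2m, chr2:122147437-122147736, plus strand: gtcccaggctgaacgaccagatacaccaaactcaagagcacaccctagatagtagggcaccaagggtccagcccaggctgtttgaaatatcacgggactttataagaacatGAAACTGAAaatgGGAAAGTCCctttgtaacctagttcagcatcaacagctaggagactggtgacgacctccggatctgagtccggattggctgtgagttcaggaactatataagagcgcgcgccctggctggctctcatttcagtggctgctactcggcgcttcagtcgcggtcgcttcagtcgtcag
Erap1, chr13:74639603-74639902, plus strand: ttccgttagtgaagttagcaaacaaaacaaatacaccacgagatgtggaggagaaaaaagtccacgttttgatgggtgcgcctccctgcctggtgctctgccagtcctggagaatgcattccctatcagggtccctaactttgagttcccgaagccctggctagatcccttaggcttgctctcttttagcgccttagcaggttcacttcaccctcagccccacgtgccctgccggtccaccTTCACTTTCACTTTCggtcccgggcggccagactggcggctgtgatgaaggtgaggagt

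The H2-K1 and H2-D1 windows each held an NF-kB core followed by a response element core of the form GAANNGAAA. B2m held a response element core of the form GAAANNGAA followed, on the other strand, by a match to the wider NF-kB core alone. Over a local alignment of 228 columns, the windows of both heavy-chain genes were identical at 206 positions, or 90.4%. Erap1 held a pair of overlapping response element cores and no NF-kB core. Of all 32851 windows in the table, 8.56% held GAAANNGAA, 7.52% held GAANNGAAA and 18.5% held GGNNNTTCC. The stricter NF-kB core GGGNNTTCC, present in 5.82% of windows, lay within the same H2-K1 and H2-D1 matches. Neither Tap1, Tapbp, Calr nor Pdia3 had any of these letters in its window. The GAS core TTCNNNGAA (8.3% of windows) was in 0 of the 8 genes' windows, CCAAT (37.4%) in 7, TGACG (20.8%), the core of the cAMP response element, in 5, and CCACG (32.8%), part of the endoplasmic reticulum stress element, in 4. The matches describe these letters only, and GAANNGAAA and GGNNNTTCC were added after the sequences had been seen.

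The class I heavy chains and their light chain were highest with LPS alone and lowest with LPS and LA. Values are spot signals divided by the 75th percentile of the array, taken from the brighter probe where a gene has several, and ± is the software's error for the spots, which leaves out labelling, culture and animal. H2-K1, a classical heavy chain, had a scaled signal of 62.9 with LPS and LA, 198 with LPS, 76.3 with LA and 122 in medium. H2-D1, the other classical heavy chain of this strain, had 83.1 with LPS and LA, 185 with LPS, 100.8 with LA and 141 in medium. B2m, the shared light chain, had 38.6 with LPS and LA, 100.3 with LPS, 41.2 with LA and 55.6 in medium. All 3 genes thus ran in the same order from LPS through medium and LA to LPS with LA. The software's error was 10.0% of the signal on every array for each of them, so it does not tell their precision apart. The last step lay within 2 errors in all 3 genes. As a log2 difference it was -0.28 ± 0.20 for H2-K1, -0.28 ± 0.20 for H2-D1 and -0.10 ± 0.20 for B2m. The lowest place is therefore not resolved from LA alone.

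With LPS against medium, H2-K1 was 1.62-fold higher (log2 difference 0.70 ± 0.20), H2-D1 1.31-fold (0.39 ± 0.20) and B2m 1.80-fold (0.85 ± 0.20). None of the 3 reached 2-fold, and the H2-D1 difference lay within 2 errors. With LPS and LA against LPS, H2-K1 was 3.15-fold lower (-1.65 ± 0.20), H2-D1 2.23-fold lower (-1.16 ± 0.20) and B2m 2.60-fold lower (-1.38 ± 0.20). The second H2-K1 probe, which targets another transcript of the gene, gave 0.63 ± 0.20 for LPS against medium and -1.62 ± 0.20 for LPS with LA against LPS, so the pair of probes differed by less than the error. Some class I heavy chain genes are similar in sequence, and a probe for one may also capture RNA of others. Without probe sequences this could not be checked. The division of signal between H2-K1, H2-D1 and the related genes below is uncertain for that reason.

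**Figure D1:**
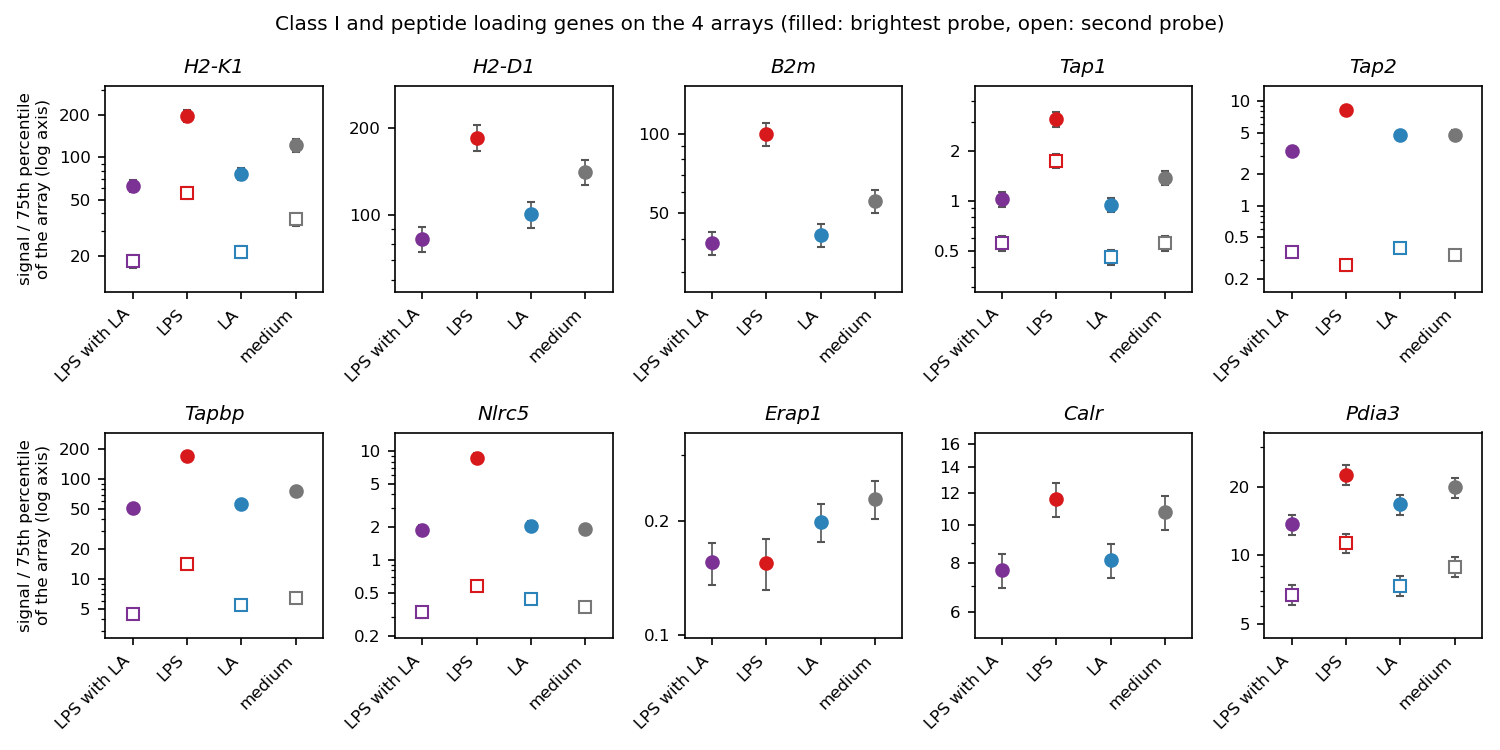
Spot signal of each gene divided by the array's 75th percentile (log axis, with its own range in every panel) on the arrays for LPS with LA, LPS, LA and medium. Filled circles are the brightest probe, open squares the second probe, and bars the error given by the software; LPS is the highest array for the brightest probe of every gene but Erap1, as with H2-K1 at 198 against 122 in medium, although for Calr and Pdia3 medium is higher under 3 other scalings.

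Tap1 and Tapbp reached 2-fold with LPS against medium, and Tap2 did not. Tap1, one subunit of TAP, had a scaled signal of 1.02 with LPS and LA, 3.12 with LPS, 0.949 with LA and 1.38 in medium. Its partner Tap2 had 3.33 with LPS and LA, 8.17 with LPS, 4.72 with LA and 4.78 in medium. Tapbp encodes tapasin, which holds empty class I molecules at TAP, and had 51.5 with LPS and LA, 169 with LPS, 56.7 with LA and 75.8 in medium. On each of these genes the LPS array stood alone at the top, and the LPS with LA array lay at or below the arrays without LPS, except that Tap1 was 1.08-fold higher with LPS and LA than with LA.

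Tap1 was 2.25-fold higher with LPS than in medium (1.17 ± 0.20) and 3.04-fold lower with LPS and LA than with LPS (-1.61 ± 0.21). Its second probe gave 1.66 ± 0.21 and -1.66 ± 0.21 for the same comparisons. Tapbp was 2.23-fold higher with LPS (1.16 ± 0.20) and 3.29-fold lower when LA was added to LPS (-1.72 ± 0.20), with 1.15 ± 0.20 and -1.67 ± 0.20 from its second probe, made to another transcript. Tap2 was 1.71-fold higher with LPS (0.77 ± 0.20) and 2.45-fold lower with LPS and LA than with LPS (-1.29 ± 0.20). Its second probe did not follow, at -0.33 ± 0.24 and 0.43 ± 0.24, with signals of 0.361, 0.269, 0.395 and 0.338 on the arrays for LPS with LA, LPS, LA and medium. The direction for Tap2 therefore rests on its brighter probe.

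Nlrc5, the class I transactivator, had the widest differences of the 10 genes by its brighter probe. With a gene's probes averaged it did not, at 1.41 beside 1.42 for Tap1 with LPS against medium, and at -1.50 beside -1.70 for Tapbp with LPS and LA against LPS. Its scaled signal was 1.89 with LPS and LA, 8.69 with LPS, 2.06 with LA and 1.91 in medium, so that 3 arrays lay close together and LPS stood apart. It was 4.56-fold higher with LPS than in medium (2.19 ± 0.20) and 4.61-fold lower with LPS and LA than with LPS (-2.20 ± 0.20). The dimmer probe for the same transcript went the same way by less, at 0.63 ± 0.22 and -0.80 ± 0.22. The size of the Nlrc5 difference depends on the probe, while its direction in these comparisons does not.

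Erap1 and the general folding factors differed from the rest. Erap1, the aminopeptidase that trims peptides in the endoplasmic reticulum, had a scaled signal of 0.156 with LPS and LA, 0.156 with LPS, 0.199 with LA and 0.230 in medium. Its highest array was medium, and it was 1.48-fold lower with LPS than in medium (-0.56 ± 0.28). It is the dimmest probe, with an error of up to 15.3% of its signal. Set against LPS alone, LPS with LA left it at 0.00 ± 0.29, between -0.12 and 0.42 across the scalings and other settings tried.

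Calr encodes calreticulin, a chaperone that binds sugars on new class I heavy chains, and had a scaled signal of 7.67 with LPS and LA, 11.6 with LPS, 8.13 with LA and 10.8 in medium. Pdia3, whose product ERp57 is bound to tapasin by a disulfide bridge, had 13.7 with LPS and LA, 22.5 with LPS, 16.7 with LA and 19.9 in medium. For both genes the 2 arrays with LA lay below the 2 without it. With quantile normalization this failed for Pdia3, at -0.05 with LA and -0.14 with LPS, each against medium. The LPS differences were 0.11 ± 0.20 for Calr and 0.18 ± 0.20 for Pdia3 (second probe 0.35 ± 0.20). Those of the brighter probes are within the error and turned negative with quantile normalization (-0.19 and -0.14), in the authors' deposited values (-0.13 and -0.05) and, for Calr (-0.08), with scaling over bright probes, where Pdia3 lay at 0.00. Compared with LPS alone, Calr was 1.51-fold lower with LPS and LA (-0.60 ± 0.20) and Pdia3 1.65-fold lower (-0.72 ± 0.20, second probe -0.75 ± 0.20), and neither reached 2-fold. These differences were within 2 errors with quantile normalization (-0.12 and -0.17) and in the authors' values (-0.18 and -0.30). That of Calr was also within 2 errors with scaling over bright probes (-0.32).

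**Figure D2:**
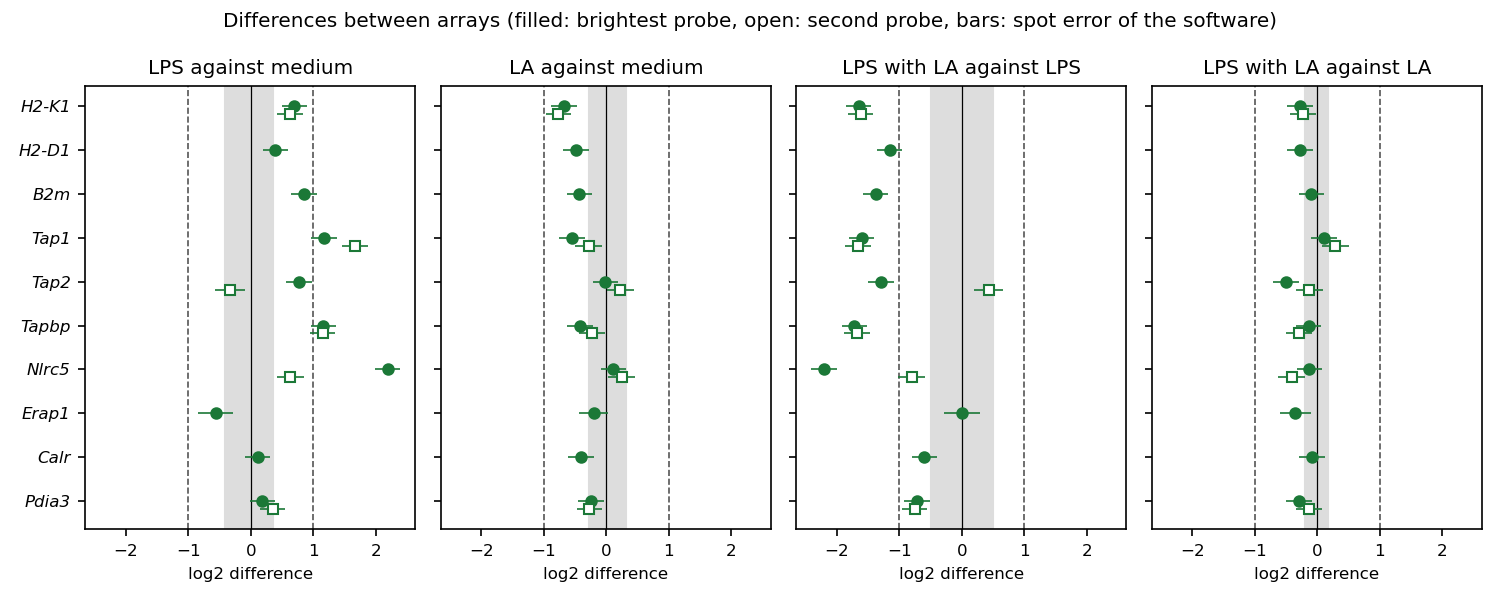
Log2 difference between 2 arrays (x axis) for each gene (rows) for each agent given alone set against medium, and for both agents together set against LPS and against LA. Filled circles are the brightest probe, open squares the second, bars the spot error, grey bands the interquartile range of all genes measured and dashed lines 2-fold; with LPS and LA against LPS 7 genes lie beyond 2-fold lower, against 0 genes in the comparison with LA alone.

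Across the set, LPS against medium gave 3 of 10 genes at least 2-fold higher (Tap1, Tapbp and Nlrc5) and 0 lower. Of the 13597 genes measured in that comparison, meaning well above background on both arrays, 8.14% were at least 2-fold higher and 7.5% lower. The median over the 10 genes was 0.74, beside 0.00 over all genes (quartiles -0.42 and 0.35). In the authors' deposited values, which are scaled so that the median of all genes lay at -0.24, only Nlrc5 of the 10 genes stayed 2-fold higher and their median was 0.50, or 0.74 relative to all genes. The split of all genes called was 1107 higher and 1020 lower as reported, 740 and 1716 in the authors' values, 858 and 1546 with scaling over bright probes, and 682 and 318 with normexp background correction.

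LA alone gave smaller differences. Of the 10 genes 0 were at least 2-fold higher and 0 lower than in medium, where 3.12% and 3.32% of 14560 measured genes were. In all 9 genes were below 0, from Tap2 at -0.02 ± 0.20 to H2-K1 at -0.68 ± 0.20 (1.60-fold lower), and Nlrc5 lay at 0.11 ± 0.20. The median was -0.41, beside 0.02 over all genes. All genes split into 454 higher and 484 lower, against 570 and 298 in the authors' values, 567 and 386 with scaling over bright probes and 73 and 164 with normexp. H2-D1 (-0.48 ± 0.20), B2m (-0.43 ± 0.20), Tap1 (-0.55 ± 0.21) and Tapbp (-0.42 ± 0.20) lay beyond 2 errors below medium, as did H2-K1. In the authors' deposited values H2-D1 (-0.33), B2m (-0.28), Tap1 (-0.39) and Tapbp (-0.27) were within 2 errors, and so were the second probes of Tap1 (-0.28 ± 0.21) and Tapbp (-0.23 ± 0.20). Nlrc5, Erap1, Calr, Pdia3 and Tap2 were within 2 errors as reported, and Tap2 was above 0 under 4 of 9 other settings.

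The largest differences came with LA added to LPS. Of the 10 genes 7 (H2-K1, H2-D1, B2m, Tap1, Tap2, Tapbp and Nlrc5) were at least 2-fold lower with LPS and LA than with LPS, and 0 were higher. Among 13629 measured genes 12.5% were at least 2-fold lower and 11.5% higher. The median of the 10 genes was -1.34, beside 0.00 over all genes (quartiles -0.49 and 0.50). With quantile normalization or in the authors' deposited values the 2-fold count was 4 and the median -0.90 or -0.91. All genes split into 1567 higher and 1698 lower as reported, 3043 and 923 in the authors' values, 2474 and 1168 with scaling over bright probes and 634 and 1102 with normexp. The 2 comparisons share the LPS array, so the LPS difference and the difference made by LA on top of LPS are not separate evidence about it.

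Set against cells with LA alone, which shares no array with the comparison of LPS and medium, LPS made little difference to these genes. Between LPS with LA and LA alone, 0 of 10 genes were at least 2-fold higher and 0 lower, as against 0.906% and 1.5% of 14901 measured genes, so few genes of any kind reached 2-fold there. The differences ran from -0.50 ± 0.20 for Tap2 to 0.11 ± 0.21 for Tap1, with a median of -0.21 beside -0.02 over all genes. Only Tap2 lay beyond 2 errors, and its second probe did not (-0.13 ± 0.22). Nlrc5, at 2.19 ± 0.20 without LA, lay at -0.13 ± 0.20 with it.

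**Figure D3:**
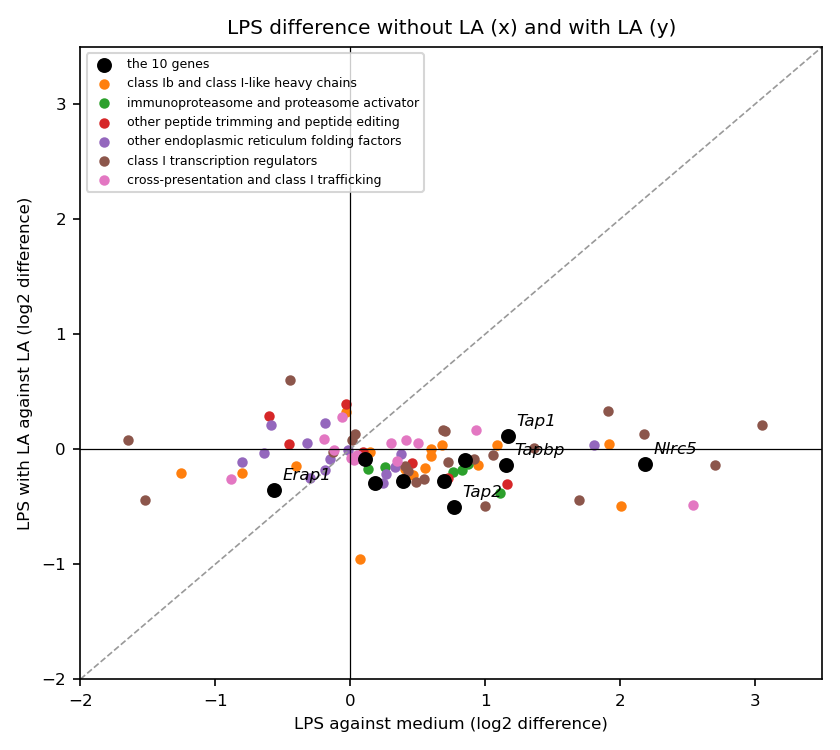
Log2 difference for LPS against medium (x axis) and for LPS with LA against LA (y axis), with the 10 genes in black and other genes of the pathway coloured by list. The dashed line marks equal differences; Nlrc5 lies at 2.19 on the x axis and -0.13 on the y axis, and the 10 genes span -0.50 to 0.11 on the y axis.

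The same contrast as a single quantity is the log2 difference made by LA in LPS-treated cells less that made by LA in untreated cells, which uses all 4 arrays. It was at least 2-fold below 0 in 4 of 10 genes (Nlrc5 at -2.32 ± 0.29, Tapbp at -1.30 ± 0.29, Tap2 at -1.27 ± 0.29 and Tap1 at -1.06 ± 0.29), where 9.7% of 13367 genes measured on all arrays were, and at least 2-fold above 0 in none of the 10 genes, against 8.97%. The second Tap2 probe gave 0.20 ± 0.32, so the Tap2 value rests on its brighter probe. H2-K1 (-0.98 ± 0.29), B2m (-0.95 ± 0.29) and H2-D1 (-0.67 ± 0.29) were also below 0 by more than 2 errors. For H2-D1 this did not hold with quantile normalization (-0.41) or scaling over bright probes (-0.47), and its value nearest 0 over the settings was -0.40. Pdia3 (-0.47 ± 0.29), Calr (-0.19 ± 0.29) and Erap1 (0.21 ± 0.37) were not, and Calr was above 0 with quantile normalization (0.12), scaling over bright probes (0.01) and the authors' values (0.08). All genes split into 1199 above and 1297 below, against 2017 and 847 in the authors' values, 1773 and 928 with scaling over bright probes and 418 and 722 with normexp.

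Between LPS with LA and medium, 0 of 10 genes were at least 2-fold apart, where 3.0% of 14518 measured genes were higher and 3.98% lower. By the brightest probe all 10 lay below 0, from Nlrc5 at -0.02 ± 0.20 to H2-K1 at -0.96 ± 0.20, with a median of -0.53 beside 0.01 over all genes. The second probes of Tap1 (0.003 ± 0.21) and Tap2 (0.10 ± 0.22) did not lie below 0. Nlrc5 was above 0 under 3 other scalings (0.02 to 0.17). All genes split into 436 higher and 578 lower, against 619 and 324 in the authors' values, 579 and 469 with scaling over bright probes and 81 and 216 with normexp. Across the 4 arrays, 7 of the 10 genes had the order LPS, medium, LA, LPS with LA, an order shown by 11.4% of the 13367 genes, and 4 had it under each of quantile normalization, scaling over bright probes and the authors' values. The highest array was LPS for 9 of the 10 genes (34.7% of all), or for 7 under those 3 scalings. The lowest array was LPS with LA for 8 of the 10 genes (23.8% of all), the exceptions being Tap1 and Erap1. That count was 7 with scaling over bright probes and in the authors' values, where Nlrc5 was an exception as well. It was 9 with median scaling, where only Tap1 was an exception. With quantile normalization the exceptions were Tap1 and Nlrc5. 

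Other genes of class I presentation were read from lists built around the pathway. Their counts stand beside the shares of all measured genes at least 2-fold apart, 8.14% higher and 7.5% lower with LPS against medium, and 11.5% higher and 12.5% lower with LPS and LA against LPS. The first list held class Ib and class I-like heavy chains, 17 of 19 with a probe. With LPS against medium 3 of 16 measured were at least 2-fold higher, 1 was lower and 12 were neither, with a median of 0.51. H2-T10 (2.01) and H2-T22 (1.92), whose products are ligands of some gamma delta T cell receptors, were highest, and Hfe (-1.25), a regulator of iron uptake, and H2-M5 (-0.80) were lowest. With LPS and LA against LPS 8 of 16 were at least 2-fold lower and 1 was higher (median -0.98), with H2-T10 at -3.09, H2-T22 at -2.76, Hfe at 1.06 and Fcgrt, the neonatal Fc receptor, at 0.32. Cross-capture between similar heavy chains may affect some of these genes as well and was not checked.

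Peptide supply was read from lists of proteasome and peptidase genes. Of 6 measured genes of the immunoproteasome and its activator, 1 was at least 2-fold higher with LPS (median 0.80) and 4 were lower with LPS and LA than with LPS (median -1.32), none going the other way 2-fold. Psmb9 and Psmb8, catalytic subunits of the immunoproteasome, lay at 1.11 and 0.88 for LPS against medium and at -2.14 and -1.87 for LPS with LA against LPS. In the genome annotation Tap1 lies between these 2 genes and Psmb8 lies between Tap1 and Tap2. The assembly factor Pomp (0.13 and -0.53) and the activator Psme3 (0.26 and -0.17) were least apart. Among 7 measured genes of peptide trimming and editing, 1 was 2-fold higher with LPS and 3 were lower when LA was added. Of these 3, Tpp2 (-1.07) counts by its brighter probe only, the other being at -0.25. Tapbpl, a tapasin-related peptide editor, lay at 1.17 and -1.63 and Lnpep, an endosomal aminopeptidase, at 0.72 and -1.17, while Ide (-0.60 and 0.94) and Blmh (-0.45 and 0.64), cytosolic peptidases, had the opposite signs. For Blmh with LPS and LA against LPS that sign rests on 1 of its 2 probes, the other being at -0.29.

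Endoplasmic reticulum folding factors outside the set were 2-fold higher with LPS, and 2-fold lower with LA added, at shares near those over all genes. With LPS against medium 1 of 14 was at least 2-fold higher and 0 lower (median -0.17), and with LPS and LA against LPS 2 were lower and 0 higher (median -0.28, or 0.15 at the other end of the settings tried). Hspa5, the chaperone BiP, was the exception at 1.81 and -2.93, and Hsp90b1, its partner GRP94, lay at -1.02 in the second comparison. Erp29 (-0.80) and Uggt1 (-0.64), which take part in glycoprotein folding and secretion, were lowest with LPS, where Ppib, a prolyl isomerase, lay at 0.38. Uggt1 (0.64) and Ganab (0.58), a glucosidase acting on new glycoproteins, were highest with LPS and LA against LPS.

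Regulators of class I transcription and of interferon signalling held the widest differences. Of 23 measured, 8 were at least 2-fold higher with LPS and 2 lower (median 0.69), and with LPS and LA against LPS 10 were lower and 2 higher (median -0.43, or -0.0055 at the other end of the settings tried). Irf1 and Irf7, interferon regulatory factors, lay at 3.06 and 2.71 for LPS against medium and at -3.13 and -4.33 when LA was added. Ifnb1, encoding interferon beta, had a signal above background with LPS alone and on no other array, and was at least 220-fold higher with LPS than in medium and at least 243-fold lower with LPS and LA than with LPS. Such a bound sets the bright signal against the lowest signal well above background on the dim array. Ifngr1, a subunit of the interferon gamma receptor, lay at -1.65 and 1.98, and Nfyc, a subunit of the CCAAT-binding factor, at -1.52 and 1.59, although the probes of Nfyc disagree, reaching 0.03 and 0.02 in the same comparisons. Of 13 measured genes of cross-presentation and class I trafficking, 1 was 2-fold higher with LPS (Ehd1, a regulator of endosomal recycling, at 2.54) and 2 were lower when LA was added (Ehd1 at -3.19 and Cybb, the catalytic subunit of the phagosomal NADPH oxidase, at -1.58), which in these directions are shares near those over all genes. Cybb was next highest with LPS (0.93). Rab43 (-0.88 and 0.48) and Rab27a (-0.20), small GTPases of vesicle traffic, were lowest with LPS, and Wdfy4, needed for cross-presentation of cell-associated antigen, was highest with LA added to LPS (0.73).

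**Figure D4:**
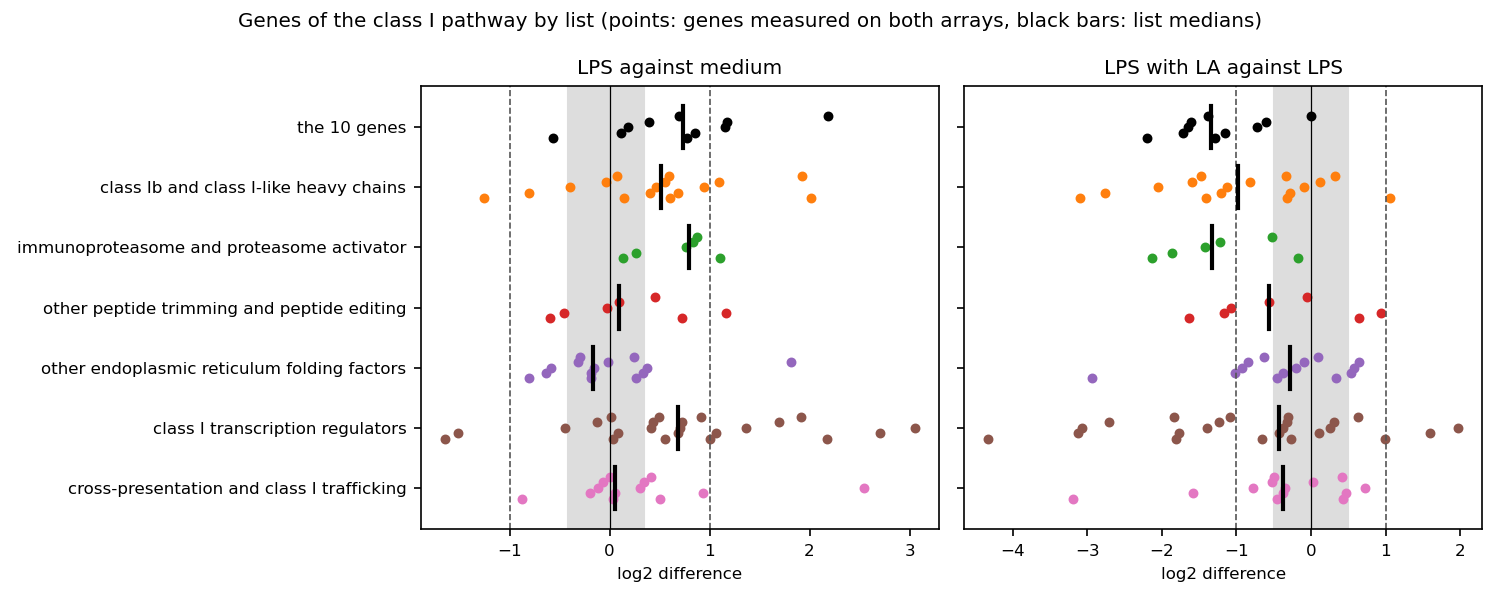
Log2 differences of single genes by list for LPS against medium (left) and LPS with LA against LPS (right), with list medians as black bars, the interquartile range of all measured genes in grey and 2-fold as dashed lines. The medians of the 10 genes, 0.74 and -1.34, lie near those of the immunoproteasome list, 0.80 and -1.32.

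The genes whose 4-array pattern lay nearest to Tap1 and B2m came from outside these lists. Likeness was the root mean square distance between levels centred on each gene's own mean over the 4 arrays, across 13366 other genes measured on all of them. Among the 5 nearest to Tap1 were Gtf2f1 (distance 0.034 log2 units), Ppp1cb (0.035), Hk1 (0.038) and Dram1 (0.042). Nearest to B2m were Zfand3 (0.026), Mthfd2 (0.027), Tbc1d8 (0.030), Psma3 (0.030) and Ghitm (0.031). Among the 10 genes, Tapbp was the nearest to both, at a distance of 0.089 and place 32 from Tap1 and of 0.14 and place 229 from B2m. With 4 arrays many genes share a pattern this closely.

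Markers of the cells such cultures can hold also differed between the arrays. Summed scaled signals of 15 dendritic cell markers were 214 with LPS and LA, 340 with LPS, 227 with LA and 296 in medium, with 14, 13, 14 and 14 of them above background in that order and Xcr1, a marker of type 1 conventional dendritic cells, above background on none. Most of each sum came from Cd74, H2-Ab1 and H2-Aa, genes of MHC class II presentation. In log2 units H2-Ab1 lay at 5.45, 6.76, 5.64 and 6.52 in that order, and H2-Aa at 4.69, 6.21, 4.75 and 5.91. Cd74 was nearly level, at 6.96, 6.94, 7.01 and 6.89. Flt3, Cd209a, Irf4 and Ciita were higher with LPS and LA than with LPS, so the sum does not stand for all 15 markers. With LPS and LA against LPS 7 of 13 measured dendritic cell markers were at least 2-fold lower and 1 was higher, beside 12.5% and 11.5% of all measured genes. In the authors' values those shares of all genes were 6.9% and 22.7%, and the marker counts were made under the main scaling only. The sums of 14 macrophage and monocyte markers were 131, 211, 140 and 165 in the same order of arrays. Those of 15 neutrophil and granulocyte precursor markers were 949, 795, 917 and 711, all 15 being above background on every array, and 8 were at least 2-fold higher with LPS and LA than with LPS (11.5% of all measured genes). The sums of 12 mast cell, basophil and eosinophil markers were 116, 103, 110 and 60.5. Lymphocyte and NK markers (3.64 to 3.87, with Ms4a1 and Ncr1 above background on no array) and erythroid markers (1.71 to 2.36) stayed low. In such bulk RNA fewer cells of a type and less RNA per cell cannot be told apart, and the part of these markers in the class I differences was not tested. Cd74 and Ciita belong both to the dendritic cell markers and to pathway lists.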

How the data were processed

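Labelled RNA from the dendritic cell cultures went onto 4 Agilent arrays in a single colour, 1 per group, all on 1 slide and scanned on the same day. The deposited intensity of each spot, per the file headers, is the background-subtracted, linear processed signal of Feature Extraction 12.0.3.1, not scaled between arrays. Version 11.5.1.1 is given in the submitters' processing notes. The authors' deposited table of intensities held 31529 spots and equals that signal times 1 factor per array (9.30 for LPS with LA, 5.82 for LPS, 8.38 for LA and 6.67 for medium), linear and not centred, with column medians of 1189, 873, 1164 and 1038.

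Outlier spots (129 to 154 per array) were left out, and 0 spots were saturated. Signals were divided by the 75th percentile of the array (146, 174, 158 and 179 in the same order of groups), 56.5% to 64.1% of spots being well above background. Probes were named by transcript identifier through a RefSeq table: 33767 of 56605 probes had 1 symbol, 0 several and 22838 none. A gene took its brightest probe by the mean over arrays. The software's error was 10.0% to 15.3% of the signal for the 16 probes, each printed once; 300 other probes printed 10 times had a median SD between spots of 0.051 to 0.054 log2 units. Genes well above background on the arrays compared were called at a log2 difference of 1 or more. With 1 array per group no test was possible.

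The genes, lists, markers and motifs were chosen with earlier results of these data known. Named genes were the 10 genes, the 2 highest and 2 lowest of each list for LPS against medium and for LPS with LA against LPS, and the 5 nearest to Tap1 and to B2m, of which 1 is not reported here. Ifnb1 and Tpp2 were named after their values were seen. Alternatives were normexp (offset 50, on the median spot signal), quantile normalization, median scaling, the 75th percentile over bright probes (above background throughout), dim probes kept, only genes above background throughout, averaged probes per gene, the authors' values and a 1.5-fold threshold. The calling steps were tested on simulated data. R 4.3.3 with limma 3.58.1 and Python 3.11.15 with numpy 2.4.6 and pandas 2.3.3 were used. The array headers name mm9, and coordinates are given only with the RefSeq promoter sequences.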

Additional observations from a re-analysis of the deposited data

Results flagged for a closer look

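These results were singled out because the difference made by one agent had opposite signs with and without the other. The opposition was not tested, and with 1 array on each side any gene whose values straddle 0 qualifies.

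For the difference made by LPS, the value with LA present (LPS with LA against LA) and the value without it (LPS against medium) were opposed in 8 genes. They were -0.13 with LA and 2.19 without it for Nlrc5, -0.14 and 1.16 for Tapbp, -0.10 and 0.85 for B2m, and -0.50 and 0.77 for Tap2. They were -0.28 and 0.70 for H2-K1, -0.28 and 0.39 for H2-D1, -0.29 and 0.18 for Pdia3, and -0.084 and 0.11 for Calr. Of the values with LA, only that of Tap2 lay beyond 2 spot errors, and the LPS values of Calr and Pdia3 were 0 or below under 3 other scalings. The second Tap2 probe gave -0.13 ± 0.22 with LA and -0.33 ± 0.24 without it. The opposition for Tap2 therefore rests on its brighter probe.

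For the difference made by LA, the value with LPS present (LPS with LA against LPS) and the value without it (LA against medium) were opposed in 2 genes. They were -2.20 with LPS and 0.11 without it for Nlrc5, and 0.0017 and -0.21 for Erap1. For Nlrc5 the value without LPS lay within 2 spot errors, and for Erap1 both values did. The Erap1 value with LPS was below 0 with quantile normalization (-0.12) and median scaling (-0.11), where its signs were not opposed.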

How the results depend on the processing

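The scaling moves the median of all genes, which lay between -0.24 and 0.07 log2 units for LPS against medium and between -0.11 and 0.43 for LPS with LA against LPS. Keeping dim probes put it at 0.14 and -0.13. Relative to all genes and over all settings the median of the 10 genes stayed between 0.54 and 0.74 in the first comparison and between -1.35 and -0.98 in the second. For LPS against medium the count of genes at least 2-fold higher, 3 as reported, was 1 with scaling over bright probes, 1 in the authors' values and 6 at 1.5-fold, and the median of 0.74 became 0.50 both with quantile normalization and in the authors' values. For LPS with LA against LPS the count of genes at least 2-fold lower, 7 as reported, was 4 with quantile normalization and 4 in the authors' values, and the median of -1.34 became -0.90 and -0.91. At 1.5-fold, 1 gene was lower with LA alone, 2 with LPS and LA against medium and 7 in the difference of differences (4 as reported). Normexp and median scaling each put 1 gene 2-fold lower with LPS and LA against medium, where none was as reported. Of 336 values of single genes that 6 of the 9 alternatives altered, 286 moved by less than the SD between different probes of a gene, 50 moved by more, and 0 values of at least 2-fold changed sign. The filters and the threshold leave these values as they are. Over all genes 682 to 2111 were called higher and 318 to 2296 lower for LPS against medium, and 634 to 3043 higher and 923 to 2732 lower for LPS with LA against LPS. Counts of all genes in the other comparisons also differed by more than 1.5 times: with normexp, LA against medium gave 73 higher and 164 lower (454 and 484 as reported), LPS with LA against LA 8 and 23 (135 and 223), LPS with LA against medium 81 and 216 (436 and 578), and the difference of differences 418 and 722 (1199 and 1297). The cause of these shifts was not tested. Signal over background limits Erap1 most. No paired analysis was possible because each group had 1 array.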
